A study of Mus musculus with 16 samples.

Results

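The question here is how the RNA of the mouse striatum differed from intact tissue 6 h after an injection of ATP, with wild-type (WT) and mutant (GS) mice in 1 model. The members are the 8 libraries that the labels place at these stages, out of 16 in the series. They are 2 WT intact, 2 GS intact, 2 WT collected at 6 h and 2 GS collected at 6 h, so each side of the comparison holds 4 libraries. The other 8 libraries, from 3 d and 15 d after ATP, enter only where a later level is given. Injured mice received 0.8 µl of 500 mM ATP on 1 side of the striatum through a fine needle under tribromoethanol anaesthesia. The labels give intact mice no treatment, and a vehicle injection was not analysed here. Effects of ATP, needle, fluid, anaesthetic and surgery therefore cannot be told apart. GS was read as the LRRK2 G2019S change that the series title names. The sources used here do not give age, sex, how the change was introduced, or whether animals were pooled. Both sides hold both genotypes, and genotype is a term of the model behind each value below unless a fit on 1 genotype is named.

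The deposited table gave read counts for 19457 genes, and the 8 libraries held 53895464 to 61734030 counts each. Mitochondrial genes took 10.3 to 12.9% of them. All 19457 genes were detected in each of the 16 libraries, so those silent in any library, such as Il1b, Tnf, Il6 and Ccl2, are outside it and are not analysed here. The labels call the replicates biological, and p-values weigh each change against the spread that the model leaves between these samples. The labelled tissue was checked against genes that mark striatal projection neurons. The dopamine receptor gene Drd1 stood at 267 ± 19.4 CPM in intact striatum and 293 ± 14.8 CPM at 6 h (SD, n = 4 each). For Drd2 the level was 336 ± 66.2 CPM in intact striatum and 288 ± 21.7 CPM at 6 h (SD, n = 4 each), and for Ppp1r1b, which encodes the signalling protein DARPP-32, it was 2162 ± 207 CPM in intact striatum and 2248 ± 101.4 CPM at 6 h (SD, n = 4 each). None of these 3 passed the test described below, though Drd2 did without WT intact replicate 1 (-0.32, edgeR adjusted p = 0.0455). CPM are counts scaled to a common library total after TMM normalisation for library composition. The cortical marker Slc17a7 was high in WT intact replicate 1 (136 CPM) and WT 6 h replicate 2 (72.8 CPM) and lay between 15.3 and 30.3 CPM in the other 6 libraries. The summed list of cortical neuron genes did not set these 2 libraries apart. It stood at 1690 CPM in WT intact replicate 1 and 1589 CPM in WT 6 h replicate 2. In the other 6 libraries that sum lay between 1363 and 1826 CPM. Choroid plexus genes summed to 427 CPM in GS intact replicate 1 and 253.5 CPM in GS 6 h replicate 2, against 56.3 to 113 CPM in the other 6. These 2 pairs of libraries, called the cortical pair and the choroid pair below, each hold 1 intact and 1 injured library. List counts of 4 or more that move by more than 1.5 times without a pair, or without 1 library, are given beside the result. Many counts of 3 or fewer change when 1 library is left out, and nothing is read from them.

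ATP is kept inside cells and is released by damaged ones. Outside the cell it acts on P2X channels and P2Y receptors, and enzymes of the cell surface cut it to ADP, AMP and adenosine. Microglia, the resident macrophages of the brain, sense these nucleotides through receptors such as P2RY12, extend processes to the site and change their genes. Astrocytes and vessel cells respond next, in part through interleukin-1, complement fragments and cytokines that signal through the gp130 receptor subunit to STAT3. Surgery and pain also release glucocorticoid hormone, which switches on its own set of genes in neurons, glia and vessels. The genes below are ordered from nucleotide receptors and danger receptors to these responses, and then to the cell types in which genes fell.

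Of 18626 genes tested, 2408 rose and 2007 fell at 6 h (edgeR quasi-likelihood test, adjusted p under 0.05), which is 12.9% and 10.8%. These shares are the background against which the counts of every gene list are to be read. The lists were chosen with earlier results of these data known, so a count above a share is not a test of its list. A rise of at least 2-fold was seen for 327 genes that passed, and a fall of at least 2-fold for 129. The 4 injured and 4 intact libraries did not overlap for 4559 genes, or 24.5% of those tested, in either direction. The median log2 fold change over all genes was -0.00063. On the first principal component, which held 41.1% of the variance, all 4 intact libraries lay on 1 side and all 4 injured libraries on the other. Changes are given as log2 fold changes ± standard error, where 1 is a doubling and a negative value is lower at 6 h. The count of 4415 genes was 2911 without GS intact replicate 1 and 2777 without GS 6 h replicate 1. It was 2089 without the choroid pair and 783 without both pairs, in fits with fewer libraries.

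**Figure D1:**
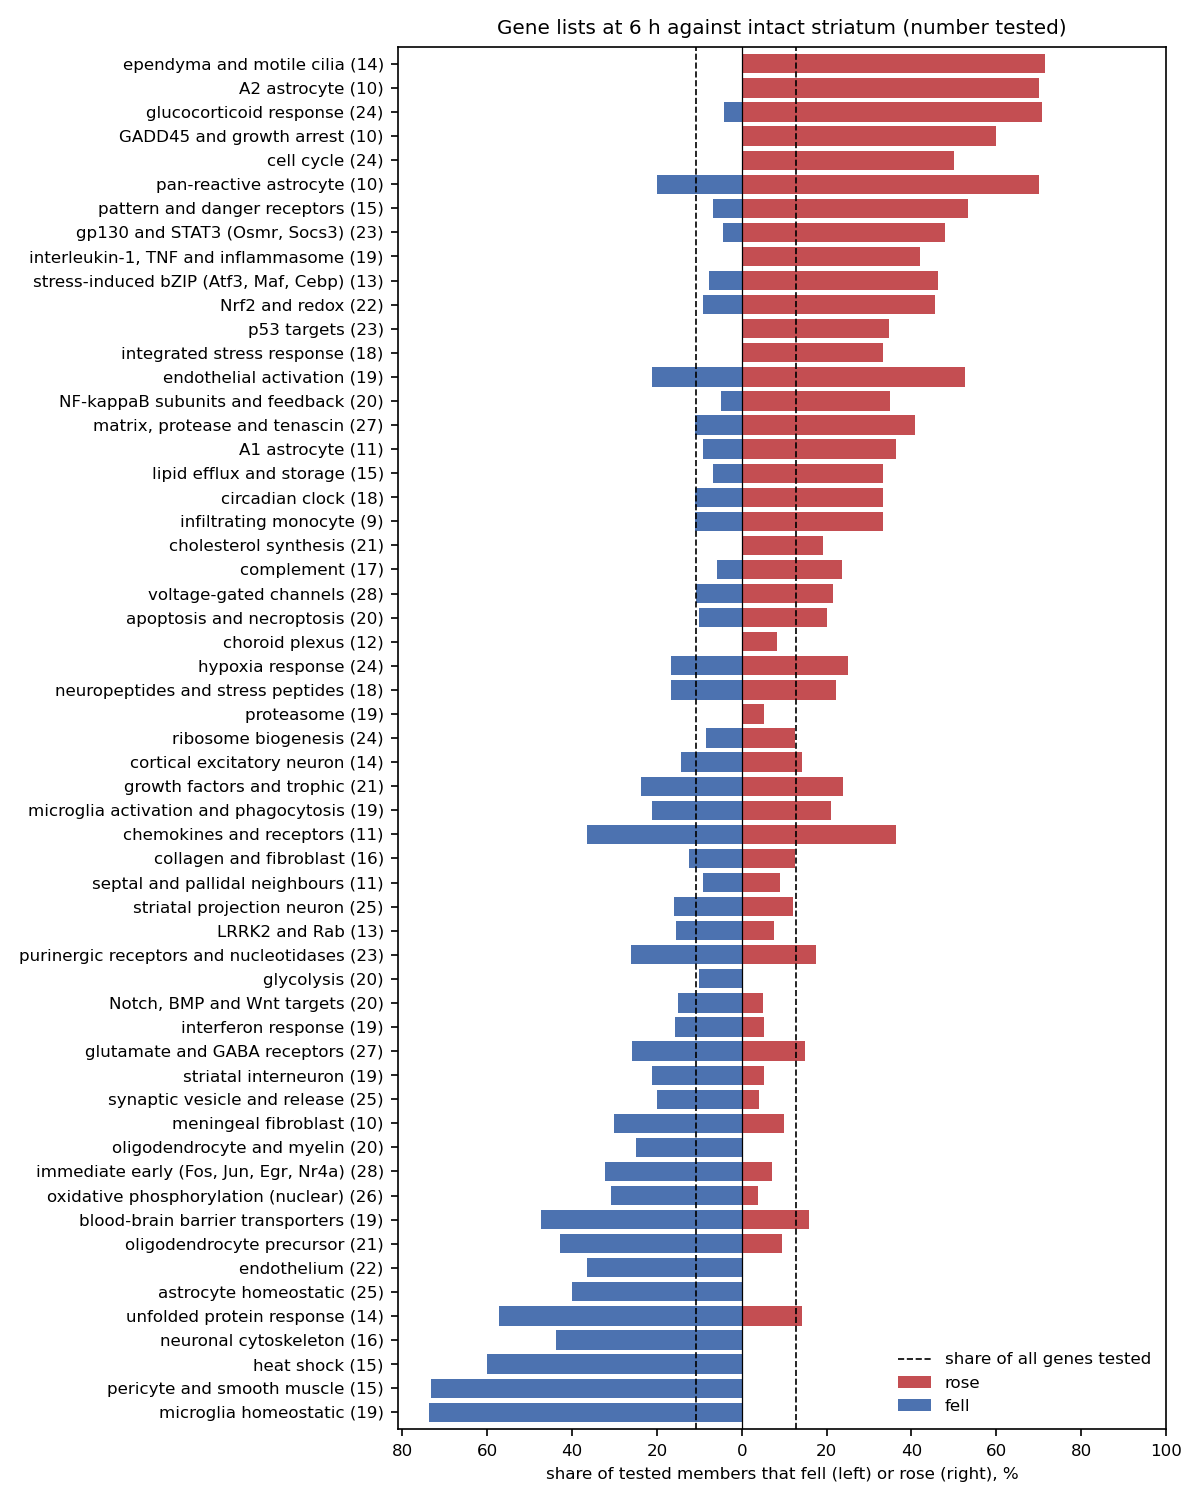
Share of tested members of each gene list that fell (blue, to the left) or rose (red, to the right) at 6 h against intact striatum, with the number tested in brackets, for the 57 lists with at least 9 tested members. Dashed lines mark the shares of all genes, 10.8% fell and 12.9% rose. The ependyma list (10 of 14 rose) lies at the top and the homeostatic microglia list (14 of 19 fell) at the bottom.

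The 15 genes with the largest rise among those that passed, at a mean of at least 1 CPM and with no overlap between sides, were Hba-a2, Hcar2, Hba-a1, C5ar1, Hbb-bt, Cd109, Hbb-bs, Socs3, Dnah12, Cd14, C3ar1, Ch25h, Thbs4, Dnah3 and Tubb6. By the same rule the 15 with the largest fall were LOC115490149, Egr2, Mmp23, Edn3, 9230009I02Rik, Arc, Cxcl12, Gm5820, Slc22a8, Tie1, Ushbp1, Etv5, Olfml3, Tek and Gm31003. The first set holds globin genes of red cells, receptors of innate immunity and genes of motile cilia. The second holds genes of vessel cells, of neuronal activity and of microglia. Edn3, which encodes endothelin 3, stood at 5.15 and 3.66 CPM in WT and 4.83 and 4.53 CPM in GS in intact striatum and at 1.94 and 1.63 CPM in WT and 1.33 and 1.38 CPM in GS at 6 h (-1.54 ± 0.16, edgeR adjusted p = 0.00019). Etv5, a transcription factor gene switched on by fibroblast growth factor signalling, stood at 73.7 and 81.4 CPM in WT and 85.3 and 97.3 CPM in GS in intact striatum. At 6 h Etv5 stood at 37.5 and 36.2 CPM in WT and 33.8 and 31.8 CPM in GS (-1.27 ± 0.083, edgeR adjusted p = 1.8e-05). For both genes every injured library lay below every intact one. Genes of these sets were picked for such a gap, so it adds no support for them here or below.

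Among receptors and enzymes for extracellular nucleotides, 4 of 23 tested members rose and 6 fell, with a median of -0.13. P2ry12, the ADP receptor of resting microglia, stood at 50.8 and 47.8 CPM in WT and 49.7 and 44.4 CPM in GS in intact striatum and at 33.7 and 27.5 CPM in WT and 22.1 and 25.4 CPM in GS at 6 h (NCBI Gene 70839, mm10 chromosome 3, 59216271 to 59262985). All injured libraries lay below all intact ones, a change of -0.83 ± 0.086, edgeR adjusted p = 0.000183. P2ry13, also an ADP receptor of microglia, changed by -0.54 ± 0.081, and the ATP-gated channel gene P2rx4 by -0.34 ± 0.082. P2rx7, the channel gene linked to inflammasome activation, did not pass (-0.06 ± 0.067, edgeR adjusted p = 0.556). Members that rose were P2ry2, a receptor for ATP and UTP (1.58 ± 0.25), and P2ry6, a receptor for UDP (0.61 ± 0.16). Entpd1, the enzyme gene that cuts ATP and ADP, fell (-0.55 ± 0.079, edgeR adjusted p = 0.000889). Nt5e, which turns AMP into adenosine, rose (0.84 ± 0.12, edgeR adjusted p = 0.000741), and so did Ada, which turns adenosine into inosine. Ada stood at 0.534 and 0.657 CPM in WT and 0.461 and 0.376 CPM in GS in intact striatum and at 1.16 and 1.48 CPM in WT and 2.16 and 2.53 CPM in GS at 6 h, a change of 1.81 ± 0.28, edgeR adjusted p = 0.00132. The adenosine receptor gene Adora2a, high in striatal projection neurons, stood at 420.3 ± 67.2 CPM in intact striatum and 316 ± 28.3 CPM at 6 h (SD, n = 4 each) and passed (-0.40 ± 0.10, edgeR adjusted p = 0.0169). Calls were lost for Adora2a without GS intact replicate 1 (-0.36, edgeR adjusted p = 0.0558) or GS 6 h replicate 1 (-0.37, edgeR adjusted p = 0.0654) and for P2ry6 without WT intact replicate 2 (0.53, edgeR adjusted p = 0.055), GS intact replicate 2 (0.53, edgeR adjusted p = 0.0585), WT 6 h replicate 2 (0.62, edgeR adjusted p = 0.0511) or GS 6 h replicate 1 (0.51, edgeR adjusted p = 0.0796). Without both pairs 1 member rose and 2 fell. At 3 d, in a fit that shares the 6 h libraries, Nt5e and Ada were lower than at 6 h (-1.08 ± 0.17 and -1.01 ± 0.25) and P2ry12 was higher (1.92 ± 0.18).

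Receptors for bacterial and damage signals rose together, with 8 of 15 tested members higher, 1 lower and a median of 0.52. Hcar2 encodes a receptor for hydroxybutyrate and niacin that is found on microglia and other myeloid cells (NCBI Gene 80885, mm10 chromosome 5, 123863570 to 123865516). It stood at 0.178 and 0.207 CPM in WT and 0.120 and 0.171 CPM in GS in intact striatum and at 2.03 and 2.19 CPM in WT and 2.65 and 1.15 CPM in GS at 6 h. The lowest injured library exceeded the highest intact one, and the change was 3.56 ± 0.31, edgeR adjusted p = 8.72e-05. C5ar1, the receptor of complement fragment C5a, stood at 0.196 and 0.0939 CPM in WT and 0.444 and 0.495 CPM in GS before injury (NCBI Gene 12273, mm10 chromosome 7, 16246743 to 16259540). At 6 h C5ar1 stood at 3.04 and 3.87 CPM in WT and 4.26 and 2.10 CPM in GS, again without overlap (3.46 ± 0.37, edgeR adjusted p = 0.000214). C3ar1, the receptor of fragment C3a, went from 1.14 and 0.564 CPM in WT and 0.547 and 0.820 CPM in GS to 4.32 and 3.87 CPM in WT and 6.52 and 3.95 CPM in GS (2.59 ± 0.26, edgeR adjusted p = 0.000155). GS 6 h replicate 1 was the highest library for each of these 3 receptors. Cd14, which hands lipopolysaccharide to toll-like receptors, went from 2.26 and 2.08 CPM in WT and 1.91 and 2.32 CPM in GS to 13.9 and 12.3 CPM in WT and 18.5 and 10.9 CPM in GS (2.69 ± 0.16, edgeR adjusted p = 1.8e-05), and Tlr2 changed by 1.56 ± 0.24, edgeR adjusted p = 0.00122. The scavenger receptor gene Msr1, in the list of microglial activation, stood at 0.118 ± 0.0305 CPM in intact striatum and 1.85 ± 0.642 CPM at 6 h (SD, n = 4 each) and rose (3.94 ± 0.35, edgeR adjusted p = 0.000101), a larger change than any in the first set above but at a mean just under 1 CPM. Without both pairs of libraries 5 of the 15 receptors rose.

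**Figure D2:**
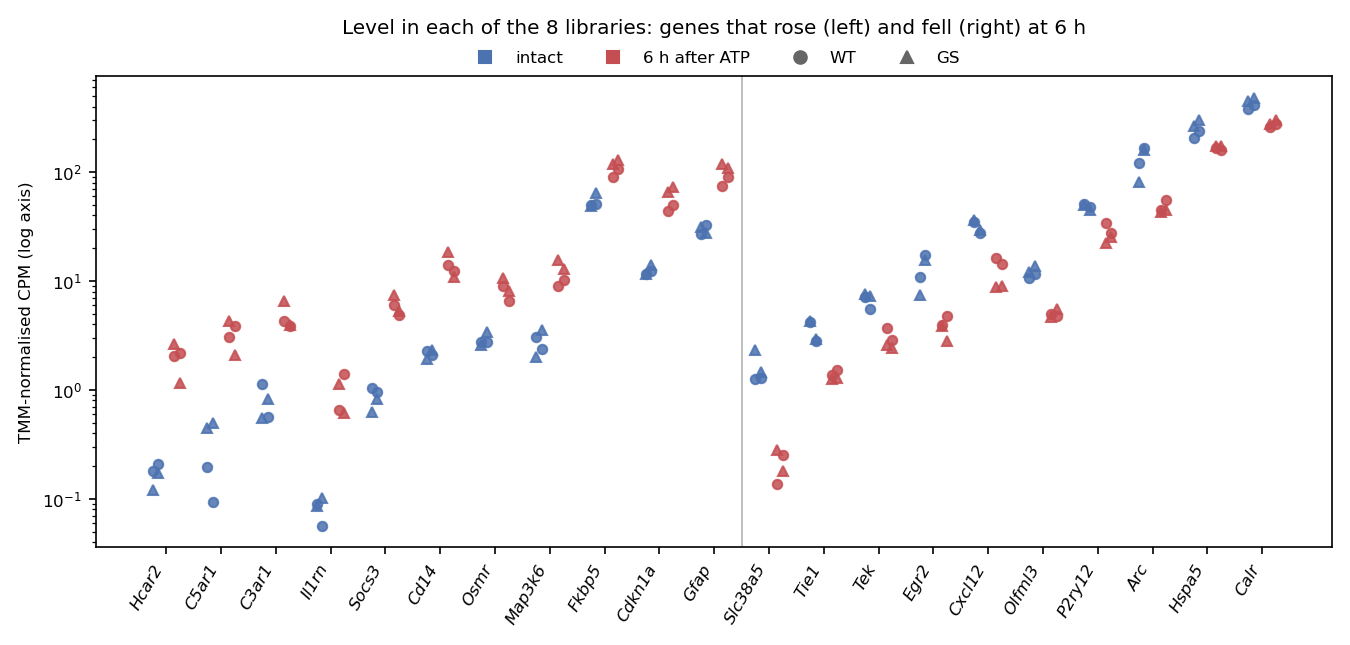
TMM-normalised CPM (log axis) of 21 genes in each of the 8 libraries, with blue for intact striatum, red for 6 h after ATP, circles for WT and triangles for GS. The 11 genes left of the line rose and the 10 right of it fell. For every gene drawn the 4 red points do not overlap the 4 blue ones.

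The interleukin-1, TNF and inflammasome list had 8 of 19 tested members higher and 0 lower, with a median of 0.41. Il1a encodes interleukin-1 alpha, an alarm cytokine held ready in cells. It stood at 0.748 and 0.695 CPM in WT and 0.564 and 0.461 CPM in GS in intact striatum and at 3.89 and 2.67 CPM in WT and 1.80 and 1.35 CPM in GS at 6 h (1.92 ± 0.21, edgeR adjusted p = 0.000264), with no overlap and higher values in the 2 WT libraries. Il1rn encodes the antagonist that blocks the interleukin-1 receptor, and it stood at 0.0890 and 0.0563 CPM in WT and 0.0854 and 0.102 CPM in GS and then at 0.648 and 1.41 CPM in WT and 1.13 and 0.610 CPM in GS (3.46 ± 0.40, edgeR adjusted p = 0.000287). Ptgs2, the inducible enzyme of prostaglandin synthesis, changed by 1.21 ± 0.19 and Tnfrsf12a, the receptor gene for the cytokine TWEAK, by 0.83 ± 0.17. The chemokines and receptors that were measured went both ways, with 4 of 11 tested members higher and 4 lower. The list holds 24 genes, and those not measured include Ccl2, Ccl3, Cxcl1 and Cxcl10, so nothing is read about chemokines as a whole. Those that rose were Ccl9 (1.99 ± 0.34), Cxcl16 (1.97 ± 0.36), Ccl6 (1.16 ± 0.27) and the receptor gene Ccr1 (1.22 ± 0.35). Ccl9 rested on uneven libraries, at 6.99 and 5.55 CPM in WT and 19.2 and 6.17 CPM in GS at 6 h against 2.53 and 2.33 CPM in WT and 2.05 and 2.17 CPM in GS in intact striatum. Cxcl12, a chemokine made by vessels and neurons, fell from 35.1 and 27.6 CPM in WT and 36.6 and 29.6 CPM in GS to 16.2 and 14.3 CPM in WT and 8.88 and 8.94 CPM in GS (-1.46 ± 0.16, edgeR adjusted p = 0.000257). Cx3cr1, the microglial receptor for neuronal fractalkine, fell too (-0.69 ± 0.07, edgeR adjusted p = 0.000169). The call for Ccr1 was lost without WT intact replicate 1 (1.10, edgeR adjusted p = 0.0641), GS intact replicate 1 (1.26, edgeR adjusted p = 0.0712), GS intact replicate 2 (0.99, edgeR adjusted p = 0.0774) or GS 6 h replicate 1 (0.90, edgeR adjusted p = 0.0967). Without both pairs 3 members of the interleukin-1 list rose.

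In the gp130 and STAT3 list, 11 of 23 tested members rose and 1 fell, with a median of 0.26. Socs3 encodes the feedback inhibitor that STAT3 induces (NCBI Gene 12702, mm10 chromosome 11, 117966079 to 117970336). Its level was 1.03 and 0.958 CPM in WT and 0.632 and 0.820 CPM in GS in intact striatum and 6.02 and 4.86 CPM in WT and 7.42 and 5.26 CPM in GS at 6 h, and the change was 2.78 ± 0.19, edgeR adjusted p = 2.52e-05. Osmr, the receptor subunit gene for oncostatin M, went from 2.72 and 2.74 CPM in WT and 2.56 and 3.40 CPM in GS to 9.07 and 6.54 CPM in WT and 10.7 and 8.04 CPM in GS (1.59 ± 0.15, edgeR adjusted p = 0.000113). Bcl3, a nuclear partner of NF-kappaB that STAT3 also induces, stood at 0.215 ± 0.0941 CPM in intact striatum and 1.35 ± 0.196 CPM at 6 h (SD, n = 4 each) (2.63 ± 0.30, edgeR adjusted p = 0.000275). Every injured library exceeded every intact one for Socs3, Osmr and Bcl3. The ligand gene Lif rose (0.97 ± 0.27, edgeR adjusted p = 0.026), and its call was lost without WT intact replicate 2 (0.97, edgeR adjusted p = 0.0502), GS intact replicate 1 (1.03, edgeR adjusted p = 0.0586), GS intact replicate 2 (0.75, edgeR adjusted p = 0.0727), GS 6 h replicate 1 (0.82, edgeR adjusted p = 0.089) or GS 6 h replicate 2 (0.98, edgeR adjusted p = 0.0537). The ligand gene Cntf was the member that fell (-1.68 ± 0.44, edgeR adjusted p = 0.0195), and its call was lost without WT intact replicate 2 (-1.27, edgeR adjusted p = 0.0513), WT 6 h replicate 1 (-1.47, edgeR adjusted p = 0.0501) or GS 6 h replicate 1 (-1.45, edgeR adjusted p = 0.0654). The count of 11 was 7 without GS 6 h replicate 1 and 7 without both pairs.

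Among stress-induced bZIP transcription factors 6 of 13 tested members rose and 1 fell, with a median of 0.34. Maff, a small Maf protein gene, went from 0.303 and 0.620 CPM in WT and 0.564 and 1.01 CPM in GS to 2.05 and 1.45 CPM in WT and 4.29 and 3.32 CPM in GS (2.12 ± 0.26, edgeR adjusted p = 0.000409). Atf3, a marker gene of stressed and injured cells, changed by 2.02 ± 0.42, edgeR adjusted p = 0.00644, and Cebpd, a factor gene of the acute phase response, by 1.04 ± 0.14, edgeR adjusted p = 0.000774. Of NF-kappaB subunits and feedback genes, 7 of 20 rose and 1 fell, led by the adhesion molecule gene Icam1 (1.46 ± 0.13, edgeR adjusted p = 0.000113) and the inhibitor of apoptosis gene Birc3 (0.79 ± 0.17). Icam1 stood at 1.58 and 1.48 CPM in WT and 1.25 and 1.59 CPM in GS in intact striatum and at 3.84 and 4.01 CPM in WT and 4.39 and 4.04 CPM in GS at 6 h, without overlap. The NF-kappaB count was 3 without GS intact replicate 1, 4 without GS intact replicate 2, 2 without GS 6 h replicate 1 and 3 without GS 6 h replicate 2. It was 4 without the cortical pair, 2 without the choroid pair and 1 without both. Of interferon response genes 1 of 19 rose and 3 fell, and 0 fell without GS intact replicate 1.

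Genes that glucocorticoid hormone induces had 17 of 24 tested members higher, 1 lower and a median of 0.68. Several of them, such as Cdkn1a, Lcn2, Mt1 and Mt2, are in other lists too and answer to other signals. The call for Lcn2 was lost without GS 6 h replicate 1 (1.30, edgeR adjusted p = 0.0511). Map3k6, a stress kinase gene, stood at 3.03 and 2.35 CPM in WT and 1.999 and 3.55 CPM in GS in intact striatum and at 8.97 and 10.3 CPM in WT and 15.6 and 12.96 CPM in GS at 6 h (NCBI Gene 53608, mm10 chromosome 4, 133237979 to 133252929). The 2 sides did not overlap and the change was 2.10 ± 0.18, edgeR adjusted p = 7.89e-05. Fkbp5, the co-chaperone gene that dampens the glucocorticoid receptor, went from 49.6 and 51.4 CPM in WT and 48.6 and 64.6 CPM in GS to 91.1 and 107 CPM in WT and 118 and 130.5 CPM in GS (1.05 ± 0.086, edgeR adjusted p = 6.22e-05). Plin4, a lipid droplet protein gene, went from 18.5 and 27.8 CPM in WT and 15.9 and 38.2 CPM in GS to 58.2 and 70.7 CPM in WT and 101.1 and 102 CPM in GS (1.70 ± 0.22, edgeR adjusted p = 0.000585). For Zbtb16, a transcription factor gene, the change was 1.22 ± 0.17, edgeR adjusted p = 0.000826. Injured libraries exceeded intact ones without overlap for Map3k6, Fkbp5, Plin4 and Zbtb16. At 3 d these genes were lower than at 6 h for Map3k6 (-1.78 ± 0.29), Plin4 (-2.52 ± 0.44) and Fkbp5 (-0.99 ± 0.15), while Zbtb16 did not pass (-0.22 ± 0.19). Over the list 8 members were lower and 5 higher at 3 d than at 6 h. Over all 18813 genes tested at 3 d against 6 h, 24.4% were higher and 24.4% lower.

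The circadian clock list had 6 of 18 tested members higher and 2 lower, with a median of 0.08. Per2, a repressor gene of the clock, stood at 61.8 and 68.4 CPM in WT and 63.6 and 94.4 CPM in GS in intact striatum and at 52.5 and 43.1 CPM in WT and 34.2 and 34.9 CPM in GS at 6 h (-0.82 ± 0.16, edgeR adjusted p = 0.00414). Arntl, the activator gene also called Bmal1, changed by -0.45 ± 0.10, edgeR adjusted p = 0.00809, and Per3 by 0.31 ± 0.044, edgeR adjusted p = 0.000845. Both sides were apart for all of these 3 genes. No source used here gives the time of day of collection, and its part in these values was not tested. Without both pairs 1 clock gene rose and 2 fell.

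Genes that p53 induces had 8 of 23 tested members higher and 0 lower, with a median of 0.15. Cdkn1a, the gene of the cell cycle inhibitor p21, stood at 11.5 and 12.3 CPM in WT and 11.6 and 14.01 CPM in GS in intact striatum and at 44.4 and 50.1 CPM in WT and 65.8 and 72.5 CPM in GS at 6 h (NCBI Gene 12575, mm10 chromosome 17, 29090979 to 29100722). The injured libraries lay far above the intact ones, higher in GS than in WT, and the change was 2.21 ± 0.10, edgeR adjusted p = 2.42e-06. Pmaip1, the gene of the death protein Noxa, went from 2.05 and 2.65 CPM in WT and 2.58 and 2.90 CPM in GS to 4.16 and 4.46 CPM in WT and 8.82 and 8.90 CPM in GS (1.30 ± 0.17, edgeR adjusted p = 0.000521). In the growth arrest list 6 of 10 rose and 0 fell, among them Gadd45b (0.87 ± 0.075, edgeR adjusted p = 8.36e-05) and Gadd45g (0.66 ± 0.11, edgeR adjusted p = 0.00205). Cell cycle genes rose as well, 12 of 24 with 0 lower and a median of 0.36. Mki67, a marker gene of dividing cells, went from 0.641 and 2.22 CPM in WT and 0.905 and 1.33 CPM in GS to 4.64 and 7.43 CPM in WT and 4.10 and 4.13 CPM in GS (1.98 ± 0.30, edgeR adjusted p = 0.00128), and Top2a changed by 1.98 ± 0.29, edgeR adjusted p = 0.00113. Their levels stayed low beside those at 3 d, when Mki67 averaged 40.9 CPM and Top2a 34.7 CPM. Cdkn1a and Gadd45b were lower at 3 d than at 6 h (-0.99 ± 0.14 and -1.003 ± 0.10). Without the choroid pair 5 of the p53 targets rose. Without both pairs the counts were 3 for p53 targets, 2 for growth arrest and 3 for the cell cycle.

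In the Nrf2 and redox list, 10 of 22 tested members rose and 2 fell. The haem oxygenase gene Hmox1 stood at 3.53 and 4.62 CPM in WT and 3.91 and 4.65 CPM in GS in intact striatum and at 7.49 and 35.7 CPM in WT and 11.4 and 7.95 CPM in GS at 6 h (1.80 ± 0.42, edgeR adjusted p = 0.0116). Its mean leaned on WT 6 h replicate 2, and its call was kept with any 1 library left out. The metallothionein genes Mt1 and Mt2, which encode small metal-binding proteins, were higher in every injured library than in every intact one (0.56 ± 0.057, edgeR adjusted p = 0.000168 and 0.75 ± 0.10, edgeR adjusted p = 0.000595). Gclc, the rate-limiting enzyme gene of glutathione synthesis, changed by 0.39 ± 0.044, edgeR adjusted p = 0.000295. Hmox1 degrades haem, and globin RNA was higher in the same libraries, as described below. Its part in the rise of Hmox1 was not tested. Without both pairs 4 of the 22 rose.

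Chaperone genes went the other way. In the heat shock list 0 of 15 tested members rose and 9 fell, with a median of -0.32, and in the unfolded protein response list 2 of 14 rose and 8 fell, with a median of -0.27. In WT libraries alone 4 heat shock and 3 unfolded protein response genes fell, with medians of -0.128 and -0.126. In GS libraries alone 10 and 8 fell, with medians of -0.485 and -0.358. This difference between genotypes was not tested for the lists. Heat shock factor binds heat shock elements, built from the unit GAA and its reverse, in promoters of cytosolic chaperones. ATF6 acts through the ER stress element, which joins CCAAT to CCACG across 9 free bases, in promoters of chaperones of the endoplasmic reticulum. The windows that follow are shown because they hold these motifs in genes that fell. They come from RefSeq promoters of build GRCm38.p6, 5′ to 3′ on the strand of the gene, with the motif and 30 bases on each side and the motif, on either strand, in capitals. Distances count back from the annotated start of the gene.
Hspa5: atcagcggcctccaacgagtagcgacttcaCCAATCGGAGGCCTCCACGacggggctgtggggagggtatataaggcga
Calr: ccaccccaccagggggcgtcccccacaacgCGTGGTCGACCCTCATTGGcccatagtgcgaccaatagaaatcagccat
Hsp90b1: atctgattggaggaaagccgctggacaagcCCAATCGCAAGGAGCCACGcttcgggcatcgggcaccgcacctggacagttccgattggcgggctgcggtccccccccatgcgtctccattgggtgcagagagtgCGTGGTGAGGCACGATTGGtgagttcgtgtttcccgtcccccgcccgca
Creld2: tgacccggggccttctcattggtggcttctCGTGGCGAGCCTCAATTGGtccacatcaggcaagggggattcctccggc
Hspb1: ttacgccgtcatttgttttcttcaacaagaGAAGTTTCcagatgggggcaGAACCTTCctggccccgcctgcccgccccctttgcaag

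The window of Hspa5 lies at chr2:34771995-34772073 on the plus strand with its motif starting 65 bases before the start. That of Calr lies at chr8:84847045-84847123 on the minus strand, 162 bases before the start, and that of Creld2 at chr15:88819490-88819568 on the plus strand, 126 bases before it. Hsp90b1 holds the ER stress element at 212 and at 107 bases before its start, in chr10:86705503-86705686 on the minus strand. Hspb1 holds the heat shock core at 117 and at 97 bases, in chr5:135887772-135887859 on the plus strand. The search read 250 bases before the start of 13515 tested genes with a promoter entry, on both strands. The ER stress element (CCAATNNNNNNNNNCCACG) was found in 5 of 12 unfolded protein response genes with an entry and in 0.155% of all these genes. Its 5 holders were the 4 above and Dnajc3. The heat shock core (GAANNTTC) was found in 6 of 12 heat shock genes with an entry and in 6.37% of all genes. Hspe1, Hspd1 and Dnaja1 also fell (-0.60 ± 0.09, -0.32 ± 0.064 and -0.26 ± 0.063) and hold the core, but their windows overlap annotated genes and are not shown. The call for Dnaja1 was lost without GS 6 h replicate 1 (-0.23, edgeR adjusted p = 0.0577). Of 5 other motifs searched, the NF-kappaB letters GGGNNNNTCC were found in 11 of 16 genes of the NF-kappaB list and in 23.3% of all genes. They are not particular to that list, with 7 of 12 heat shock genes and 11 of 20 nucleotide receptor and enzyme genes. Lower shares were seen too, such as 0 of 9 neuronal cytoskeleton genes. The palindrome TTCCNGGAA of STAT factors was in 0 of 20 gp130 and STAT3 genes and in 1.16% of all. The cAMP response element TGACGTCA was in 2 of 23 immediate early genes and in 2.75% of all. The letters CCATATNNGG of serum response elements were in 2 of those 23 and in 0.533% of all. The metal response core TGCNCNC was in 9 of 18 Nrf2 and redox genes and in 56.5% of all. A match describes these letters and does not show that a factor bound there.

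Hspa5, the main chaperone gene of the endoplasmic reticulum, stood at 207 and 236 CPM in WT and 264 and 303 CPM in GS in intact striatum and at 167 and 160.4 CPM in WT and 172 and 174 CPM in GS at 6 h (NCBI Gene 14828, mm10 chromosome 2, 34772090 to 34776529). The injured libraries lay below all intact ones, a change of -0.57 ± 0.069, edgeR adjusted p = 0.000398. Calr, the gene of the calcium-binding chaperone calreticulin, went from 377 and 409.7 CPM in WT and 450.1 and 483 CPM in GS to 259 and 275 CPM in WT and 275 and 301 CPM in GS (-0.63 ± 0.054, edgeR adjusted p = 7.89e-05), and Hsp90b1 from 429 and 489 CPM in WT and 501 and 540.5 CPM in GS to 326 and 364 CPM in WT and 368 and 395 CPM in GS (-0.43 ± 0.056, edgeR adjusted p = 0.000587). Creld2 stood at 14.6 ± 2.01 CPM in intact striatum and 10.9 ± 1.10 CPM at 6 h (SD, n = 4 each) (-0.41 ± 0.11, edgeR adjusted p = 0.0199). Dnajc3, the remaining holder of the element, did not pass (0.0075 ± 0.072, edgeR adjusted p = 0.957). Among cytosolic and mitochondrial chaperones, the constitutive Hspa8 went from 948 and 1146 CPM in WT and 1291 and 1496 CPM in GS to 765 and 764 CPM in WT and 766 and 767 CPM in GS (-0.66 ± 0.09, edgeR adjusted p = 0.000706). Intact libraries of Hspa8 were spread far apart: 0.326% of 4300 genes above 50 CPM varied more among them, measured as chi-square over its degrees of freedom. The 4 injured libraries lay closer together than counting noise gives on average (0.129, against a median of 11.3 over genes), as did 20 of 4327 such genes at the 0.1 lower tail. WT intact replicate 1 was the lowest of the 4 intact libraries for Hspa5, Calr, Hsp90b1 and Hspa8. Hspe1, the partner gene of the mitochondrial chaperonin, changed by -0.60 ± 0.09, edgeR adjusted p = 0.00127, and Hspb1, a small heat shock protein gene, by -0.60 ± 0.16, edgeR adjusted p = 0.0191. The stress-inducible copies Hspa1a and Hspa1b did not pass (-0.66 ± 0.23, edgeR adjusted p = 0.058 and -0.49 ± 0.19, edgeR adjusted p = 0.0838), and reads can be shared between them. They passed, as falls, without WT intact replicate 1 or without WT 6 h replicate 2, with -0.85 and -0.92 for Hspa1a and -0.66 and -0.64 for Hspa1b. Dnajb9 and Herpud1 were the 2 unfolded protein response genes that rose (0.22 ± 0.054 and 0.22 ± 0.059), and the call for Herpud1 was lost without WT intact replicate 1 (0.17, edgeR adjusted p = 0.0569), GS intact replicate 1 (0.22, edgeR adjusted p = 0.0593), WT 6 h replicate 2 (0.22, edgeR adjusted p = 0.0556) or GS 6 h replicate 2 (0.18, edgeR adjusted p = 0.0755). At 3 d all 15 heat shock and all 14 unfolded protein response genes were higher than at 6 h, Hspa5 by 1.76 ± 0.10 and Calr by 0.95 ± 0.069. Calls were lost for Creld2 without WT intact replicate 2 (-0.40, edgeR adjusted p = 0.0524), GS 6 h replicate 1 (-0.40, edgeR adjusted p = 0.0639) or GS 6 h replicate 2 (-0.35, edgeR adjusted p = 0.061). For Hspb1 they were lost without WT intact replicate 2 (-0.55, edgeR adjusted p = 0.0524), GS intact replicate 1 (-0.51, edgeR adjusted p = 0.0747), WT 6 h replicate 2 (-0.57, edgeR adjusted p = 0.0551) or GS 6 h replicate 2 (-0.49, edgeR adjusted p = 0.0552). The count of 8 unfolded protein response genes was 5 without GS 6 h replicate 1 and 4 without the choroid pair, and without the choroid pair 0 rose.

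**Figure D3:**
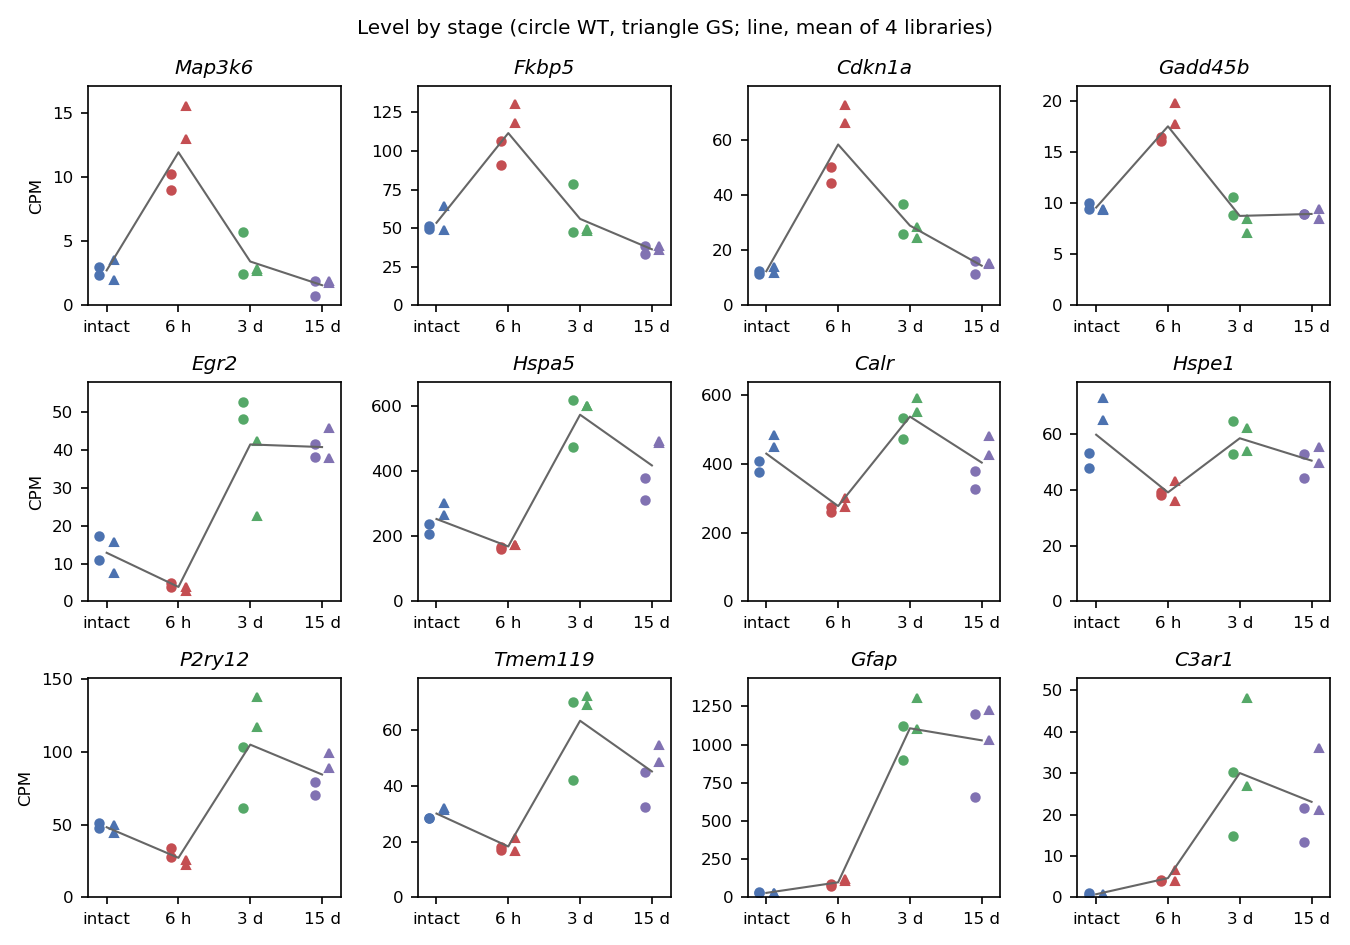
CPM of 12 genes at the 4 stages, each point 1 library (circles WT, triangles GS) and the line through the means of 4 libraries. Map3k6, Fkbp5, Cdkn1a and Gadd45b are highest at 6 h, Egr2, Hspa5, Calr, Hspe1, P2ry12 and Tmem119 are lowest at 6 h, and Gfap and C3ar1 are above intact levels at 6 h and higher still at 3 d.

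Immediate early genes, which neurons switch on within minutes of activity, had 2 of 28 tested members higher and 9 lower, with a median of -0.21. Egr2, a zinc finger factor gene, stood at 10.9 and 17.4 CPM in WT and 7.50 and 15.7 CPM in GS in intact striatum and at 3.91 and 4.75 CPM in WT and 3.85 and 2.82 CPM in GS at 6 h (NCBI Gene 13654, mm10 chromosome 10, 67534469 to 67542188), a change of -1.75 ± 0.23, edgeR adjusted p = 0.000561. Arc, the gene of a protein that trims glutamate receptors from synapses, went from 121 and 167 CPM in WT and 81.1 and 158 CPM in GS to 44.8 and 55.6 CPM in WT and 43.3 and 45.1 CPM in GS (-1.48 ± 0.17, edgeR adjusted p = 0.000344). Npas4, a factor gene induced by calcium entry, went from 43.5 and 51.7 CPM in WT and 30.8 and 53.3 CPM in GS to 19.6 and 22.2 CPM in WT and 27.1 and 14.2 CPM in GS (-1.10 ± 0.19, edgeR adjusted p = 0.00271), and Egr1 changed by -0.69 ± 0.14, edgeR adjusted p = 0.00529. For Egr2, Arc, Npas4 and Egr1 the sides did not overlap. Intact libraries were themselves uneven for these genes, with GS intact replicate 1 the lowest of the 4. Nr4a1 passed (-1.05 ± 0.33, edgeR adjusted p = 0.0418) but its libraries overlapped, since GS 6 h replicate 1 lay above GS intact replicate 1, and its call was lost without WT intact replicate 1 (-0.98, edgeR adjusted p = 0.0686), WT intact replicate 2 (-0.89, edgeR adjusted p = 0.0874), GS intact replicate 2 (-1.09, edgeR adjusted p = 0.0747), WT 6 h replicate 1 (-0.81, edgeR adjusted p = 0.131), WT 6 h replicate 2 (-0.90, edgeR adjusted p = 0.147) or GS 6 h replicate 2 (-0.97, edgeR adjusted p = 0.0905). Fos did not pass (-0.64 ± 0.31, edgeR adjusted p = 0.166), nor did Junb (0.054 ± 0.16, edgeR adjusted p = 0.842), but Fos fell without GS intact replicate 1 (-0.93, edgeR adjusted p = 0.0386) or GS 6 h replicate 1 (-0.95, edgeR adjusted p = 0.047). The activity-dependent peptide gene Vgf went from 184 and 219.6 CPM in WT and 196 and 259 CPM in GS to 122 and 126 CPM in WT and 135 and 132 CPM in GS (-0.74 ± 0.081, edgeR adjusted p = 0.000242). At 3 d 19 members of the list were higher than at 6 h and 0 were lower, with Egr2 at 3.42 ± 0.25 and Arc at 2.43 ± 0.20.

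Other lists of neuronal genes differed in how many members passed. In the striatal projection neuron list 3 of 25 tested members rose and 4 fell, with a median of -0.07. In WT libraries alone 5 of these genes rose and 2 fell, with a median of 0.09. In GS libraries alone 2 rose and 12 fell, with a median of -0.22, and this difference between genotypes was not tested for the list. Rgs4, which shortens G protein signals, fell (-0.54 ± 0.072, edgeR adjusted p = 0.000664). Among cytoskeletal genes of neurons 0 of 16 rose and 7 fell. The neurofilament gene Nefm went from 179 and 197 CPM in WT and 239 and 274 CPM in GS to 100.5 and 116 CPM in WT and 116 and 141 CPM in GS (-0.90 ± 0.081, edgeR adjusted p = 0.000103). In the list of synaptic vesicle genes 1 of 25 rose and 5 fell, with Rph3a lower (-0.42 ± 0.066) and Sv2b higher (0.42 ± 0.068). Of glutamate and GABA receptor genes 4 of 27 rose and 7 fell, with Grin2a higher (0.37 ± 0.055). Voltage-gated channel genes split likewise, 6 of 28 higher and 3 lower, with Kcna1 higher (0.43 ± 0.053) and Cacna1a lower (-0.43 ± 0.066). These counts are to be read against the 12.9% of all genes that rose and the 10.8% that fell. The 4 projection neuron genes that fell were 9 without WT intact replicate 1, 2 without GS intact replicate 1, 2 without GS 6 h replicate 1, 7 without the cortical pair and 2 without the choroid pair. Synaptic vesicle genes that fell numbered 3 without GS intact replicate 1, 3 without GS 6 h replicate 1 and 2 without the choroid pair. Receptor genes that fell numbered 4 without GS intact replicate 1, WT 6 h replicate 2 or the choroid pair. Without both pairs 1 projection neuron gene, 2 cytoskeletal genes, 2 vesicle genes and 3 receptor genes fell, and 1 receptor gene and 1 channel gene rose.

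Homeostatic genes of microglia fell as a group. Of 19 tested, 14 fell and 0 rose, with a median of -0.54. Olfml3, a secreted protein gene of microglia, stood at 10.6 and 11.5 CPM in WT and 12.1 and 13.8 CPM in GS in intact striatum and at 4.98 and 4.75 CPM in WT and 4.64 and 5.47 CPM in GS at 6 h (NCBI Gene 99543, mm10 chromosome 3, 103735394 to 103738001). The sides were far apart and the change was -1.27 ± 0.091, edgeR adjusted p = 2.91e-05. Tmem119, a membrane protein gene used to mark resident microglia, went from 28.3 and 28.6 CPM in WT and 31.4 and 32.0 CPM in GS to 18.1 and 17.1 CPM in WT and 16.6 and 21.1 CPM in GS (-0.72 ± 0.071, edgeR adjusted p = 0.000142). Fcrls changed by -0.98 ± 0.16 and Csf1r, the survival receptor gene of microglia, by -0.35 ± 0.045. In bulk tissue, fewer cells of a type and less RNA per cell cannot be told apart, here and for every cell type below. The count stayed between 13 and 15 with any 1 library left out and was 8 without both pairs. At 3 d 18 of the 19 were higher than at 6 h, Olfml3 by 2.98 ± 0.15. Genes of microglial activation did not move as a group, with 4 of 19 higher and 4 lower, and the 4 that fell were 1 without GS intact replicate 1 or GS 6 h replicate 1, 2 without WT intact replicate 2 or either pair and 0 without both pairs. Without both pairs 2 rose. Of complement genes 4 of 17 rose and 1 fell, with C4b higher (1.09 ± 0.20, edgeR adjusted p = 0.00341), and without both pairs 1 rose. Csf3r, the receptor gene for the granulocyte growth factor, fell (-0.96 ± 0.11, edgeR adjusted p = 0.000278). It is in the neutrophil list, of which 4 of 16 genes were measured, and the defining genes S100a8, S100a9, Ly6g and Retnlg are outside the table, as is Ccr2 of monocytes.

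Genes that mark reactive astrocytes rose. Gfap, the intermediate filament gene of astrocytes, stood at 27.2 and 32.8 CPM in WT and 31.2 and 27.7 CPM in GS in intact striatum and at 75.1 and 90.5 CPM in WT and 119 and 110 CPM in GS at 6 h (NCBI Gene 14580, mm10 chromosome 11, 102887336 to 102897200). No injured library came down to the intact range, and the change was 1.72 ± 0.11, edgeR adjusted p = 1.8e-05. At 3 d Gfap averaged 1107 CPM, 3.50 ± 0.16 above 6 h. Of 10 tested pan-reactive genes 7 rose and 2 fell, and of 10 genes linked to the A2 state 7 rose and 0 fell, with medians of 0.56 and 1.21. In the A2 list Cd109, a surface protein gene, went from 0.0534 and 0.432 CPM in WT and 0.290 and 0.256 CPM in GS to 1.36 and 2.35 CPM in WT and 3.80 and 2.23 CPM in GS (3.22 ± 0.41, edgeR adjusted p = 0.000524). Emp1 changed by 1.54 ± 0.21 and Sphk1, the gene of a kinase that makes sphingosine phosphate, by 2.02 ± 0.29. Cd14, Stat3 and Ptgs2 are also in that list, and microglia or vessels can express them. Of 11 genes linked to the A1 state 4 rose and 1 fell, among them Fkbp5, which is also in the glucocorticoid list, and Gbp2 (1.001 ± 0.21, edgeR adjusted p = 0.00713). Homeostatic astrocyte genes fell, 10 of 25 with 0 higher and a median of -0.10. The thyroid hormone transporter gene Slco1c1 changed by -0.59 ± 0.071, edgeR adjusted p = 0.000398 and the water channel gene Aqp4 by -0.20 ± 0.047, edgeR adjusted p = 0.0126. The pan-reactive count of 7 was 4 without GS 6 h replicate 1, and the 2 that fell were 0 or 1 with any 1 library left out. The homeostatic count of 10 was 6 without WT intact replicate 2 and 3 without both pairs.

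Vessel genes split between identity and activation. In the endothelial list 8 of 22 tested members fell and 0 rose, with a median of -0.29. In WT libraries alone 4 of these genes fell, with a median of -0.05, and in GS libraries alone 12 fell, with a median of -0.54. This difference between genotypes was not tested for the list. Tie1 and Tek encode receptor kinases of the angiopoietin pathway that keep vessels stable. Tek stood at 7.09 and 5.52 CPM in WT and 7.55 and 7.26 CPM in GS in intact striatum and at 3.73 and 2.85 CPM in WT and 2.56 and 2.40 CPM in GS at 6 h (-1.25 ± 0.16, edgeR adjusted p = 0.000468), and Tie1 went from 4.20 and 2.84 CPM in WT and 4.32 and 2.92 CPM in GS to 1.36 and 1.54 CPM in WT and 1.25 and 1.29 CPM in GS (-1.40 ± 0.18, edgeR adjusted p = 0.000576). Neither gene overlapped between sides (Tek is NCBI Gene 21687, mm10 chromosome 4, 94739086 to 94874976). Cldn5, the tight junction gene, did not pass (-0.27 ± 0.17, edgeR adjusted p = 0.295), nor did Pecam1 (0.013 ± 0.10, edgeR adjusted p = 0.947). Blood-brain barrier transporters fell in 9 of 19 cases and rose in 3, or in 1 without WT intact replicate 2, GS intact replicate 1, either GS 6 h library, the choroid pair or both pairs. Slc38a5, an amino acid transporter gene, went from 1.26 and 1.28 CPM in WT and 2.34 and 1.47 CPM in GS to 0.136 and 0.253 CPM in WT and 0.279 and 0.179 CPM in GS (-2.88 ± 0.27, edgeR adjusted p = 0.00012), and Slc22a8, an organic anion transporter gene, changed by -1.40 ± 0.16, edgeR adjusted p = 0.000276. Of 15 pericyte and smooth muscle genes 11 fell and 0 rose, with a median of -0.45, including Vtn (-0.54 ± 0.063, edgeR adjusted p = 0.000295) and Anpep (-0.83 ± 0.17, edgeR adjusted p = 0.00555). Genes of activated endothelium rose in 10 of 19 cases and fell in 4, but 3 of the leading ones, Socs3, Cdkn1a and Icam1, are expressed by other cells too. Adamts9, a matrix protease gene, rose (1.33 ± 0.17, edgeR adjusted p = 0.000576), as did Plaur, the urokinase receptor gene (1.95 ± 0.24, edgeR adjusted p = 0.000421). Tek was 1.70 ± 0.21 higher at 3 d than at 6 h, Tie1 1.73 ± 0.19 and Slc38a5 3.50 ± 0.24. Without the choroid pair 5 endothelial and 5 pericyte genes fell. Without both pairs the counts that fell were 3 endothelial, 3 transporter and 2 pericyte genes. The 4 activation genes that fell were 2 without the cortical pair and 1 without both.

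Oligodendrocyte precursor genes had 9 of 21 tested members lower and 2 higher. Gpr17, a receptor gene of committed precursors, went from 68.1 and 65.5 CPM in WT and 79.4 and 72.7 CPM in GS to 48.9 and 46.9 CPM in WT and 46.6 and 53.8 CPM in GS (-0.54 ± 0.057, edgeR adjusted p = 0.000189), and C1ql1 changed by -0.82 ± 0.13, edgeR adjusted p = 0.00191. Pdgfra, the receptor that defines precursors, did not pass (0.16 ± 0.072, edgeR adjusted p = 0.139), but it was higher without WT intact replicate 1 (0.23, edgeR adjusted p = 0.0189). In mature oligodendrocytes 0 of 20 rose and 5 fell, among them the lipid enzyme gene Ugt8a (-0.56 ± 0.068, edgeR adjusted p = 0.000398). The myelin gene Mbp did not pass (0.029 ± 0.052, edgeR adjusted p = 0.73). The mature count was 8 without GS 6 h replicate 2.

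Matrix and protease genes had 11 of 27 tested members higher and 3 lower, with a median of 0.25. Thbs1, the gene of thrombospondin 1, stood at 0.142 and 0.507 CPM in WT and 1.01 and 0.530 CPM in GS in intact striatum and at 0.921 and 1.88 CPM in WT and 6.26 and 2.91 CPM in GS at 6 h (2.39 ± 0.39, edgeR adjusted p = 0.0019). Its libraries overlapped and GS 6 h replicate 1 was the highest. Lox, the collagen cross-linking enzyme gene, went from 0.249 and 0.225 CPM in WT and 0.188 and 0.376 CPM in GS to 0.784 and 1.03 CPM in WT and 1.39 and 0.879 CPM in GS without overlap (1.97 ± 0.28, edgeR adjusted p = 0.000875). The matrix count was 7 without the cortical pair, 6 without the choroid pair and 4 without both, and without both 0 fell. Thbs4, of the same family as Thbs1, is among the largest rises (2.58 ± 0.36, edgeR adjusted p = 0.000827), as is Ch25h, which makes hydroxycholesterol (2.58 ± 0.24, edgeR adjusted p = 0.000118). Growth factor genes were mixed, 5 of 21 higher and 5 lower, with Hgf higher (0.79 ± 0.18) and Vegfa lower (-0.48 ± 0.072). The 5 growth factor genes that fell were 3 without GS 6 h replicate 1, and the 5 that rose were 2 without the choroid pair and 0 without both.

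Globin genes, which mark red blood cells, were higher in the injured libraries. In the erythrocyte list 4 of 5 tested members rose and 0 fell, and the cells that held this RNA were not tested. The 4 globin genes of the table summed to 3.34 to 5.81 CPM in intact striatum and to 27.7 to 59.0 CPM at 6 h. Hbb-bs, a beta globin gene, stood at 1.66 and 1.58 CPM in WT and 1.62 and 2.08 CPM in GS and then at 16.2 and 20.1 CPM in WT and 18.4 and 9.85 CPM in GS (3.20 ± 0.21, edgeR adjusted p = 1.8e-05), and Hba-a2 changed by 3.60 ± 0.29, edgeR adjusted p = 6.22e-05. Near-identical copies such as Hba-a1 and Hba-a2 can share reads. Alas2, the haem synthesis gene of red cell precursors, is outside the table. At 3 d the sum lay between 2.84 and 11.6 CPM. Its part in other results was not tested.

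Genes of ependyma, the ciliated lining of the ventricle, rose in 10 of 14 tested cases with 0 lower and a median of 1.27. Dnah12, a motor protein gene of motile cilia, stood at 0.285 and 1.39 CPM in WT and 0.461 and 0.359 CPM in GS in intact striatum and at 1.84 and 5.04 CPM in WT and 5.79 and 4.20 CPM in GS at 6 h (2.77 ± 0.48, edgeR adjusted p = 0.00243). WT intact replicate 2 was high among the intact libraries and WT 6 h replicate 1 low among the injured ones. Foxj1, the master factor gene of motile cilia, changed by 0.84 ± 0.16, edgeR adjusted p = 0.00401. The list summed to 74.9 to 99.1 CPM in intact libraries and 104 to 120.2 CPM in injured ones. The count of 10 was 6 without WT 6 h replicate 2, 5 without the cortical pair, 5 without the choroid pair and 0 without both, and 0 passed in WT libraries alone. Of cortical neuron genes 2 of 14 rose and 2 fell, and 4 fell without WT intact replicate 2 or without the cortical pair. Of choroid plexus genes 1 of 12 rose and 0 fell. Ttr, the choroid plexus gene, stood at 27.6 and 72.1 CPM in WT and 358 and 56.8 CPM in GS in intact striatum and at 63.99 and 46.6 CPM in WT and 34.4 and 192 CPM in GS at 6 h. Of meningeal fibroblast genes 1 of 10 rose and 3 fell, and 0 fell without GS intact replicate 1. Whether the part of the tissue sampled differed between libraries was not tested.

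**Figure D4:**
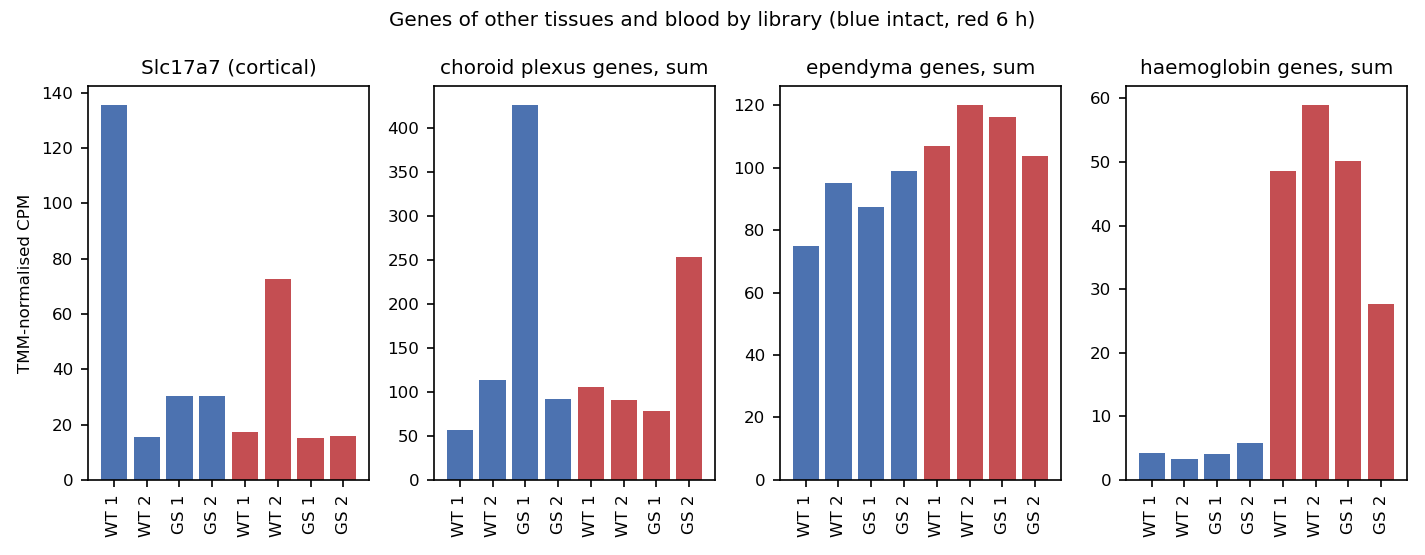
TMM-normalised CPM by library for the cortical marker Slc17a7 and for the summed genes of choroid plexus, ependyma and haemoglobin, with blue bars for intact and red bars for 6 h. Slc17a7 is high in 1 library of each side and choroid plexus genes in another, while the haemoglobin sum is 3.34 to 5.81 CPM in intact libraries and 27.7 to 59.0 CPM at 6 h.

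Lrrk2, the gene of the kinase whose change the GS mice carry, stood at 135 and 163 CPM in WT and 168 and 217 CPM in GS in intact striatum and at 135 and 136 CPM in WT and 135 and 136 CPM in GS at 6 h (NCBI Gene 66725, mm10 chromosome 15, 91672791 to 91816124). WT intact replicate 1 lay at the injured level and the other 3 intact libraries above, so the sides overlapped. The injured libraries were closer together than counting noise gives on average, with a chi-square over degrees of freedom of 0.191, and the change was -0.32 ± 0.10, edgeR adjusted p = 0.0333. Its call was lost without WT intact replicate 2 (-0.31, edgeR adjusted p = 0.0789), GS 6 h replicate 1 (-0.28, edgeR adjusted p = 0.112) or GS 6 h replicate 2 (-0.29, edgeR adjusted p = 0.09). The call was also lost in WT libraries alone, without the choroid pair, and with the level of choroid plexus genes as a covariate. Other losses came without the filter on low counts and against a 1.2-fold threshold. Over 25 alternatives the change in Lrrk2 ran from -0.511 to -0.139. A point mutation may leave the amount of RNA as it was, and no genotype label was checked with these values. In the LRRK2 and Rab list 1 of 13 rose and 2 fell, and 0 fell without GS 6 h replicate 1 or without the choroid pair.

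Whether the 6 h response differed between genotypes was tested with an interaction term in the same 8 libraries. It passed for 1 gene of 18626, or 0.00537%, while 2530 had an unadjusted p under 0.05 and DESeq2 called 476. With 1 library left out it passed for 0 to 216 genes, with 216 without GS intact replicate 1 and 21 without WT intact replicate 2. The gene called with all 8 libraries was Rhobtb2, which encodes an adaptor for protein degradation. Rhobtb2 stood at 185 and 187 CPM in WT and 238 and 249 CPM in GS in intact striatum and at 204 and 194 CPM in WT and 162 and 167 CPM in GS at 6 h. GS intact libraries were above and GS 6 h libraries below all WT ones. The log2 change was 0.10 in WT and -0.57 in GS, and GS minus WT was -0.67 ± 0.071, edgeR adjusted p = 0.0298. The call for Rhobtb2 was lost without WT intact replicate 1, GS intact replicate 2, WT 6 h replicate 1 or either of the GS 6 h libraries. Genes described above had separate values in the 2 genotypes that can be set side by side. Cdkn1a changed by 1.99 ± 0.10 in WT and 2.43 ± 0.10 in GS, C5ar1 by 4.55 ± 0.45 and 2.75 ± 0.37, and P2ry12 by -0.68 ± 0.10 and -0.99 ± 0.10. Ada changed by 1.15 ± 0.28 in WT and 2.48 ± 0.29 in GS, and Hspa8 by -0.45 ± 0.086 and -0.87 ± 0.087. None of these 5 passed the interaction test. With 2 libraries a group, an adjusted p above the threshold does not show that the genotypes responded alike. In WT libraries alone 1482 genes passed and in GS libraries alone 3607, which is a difference in calls and was not tested as such.

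**Figure D5:**
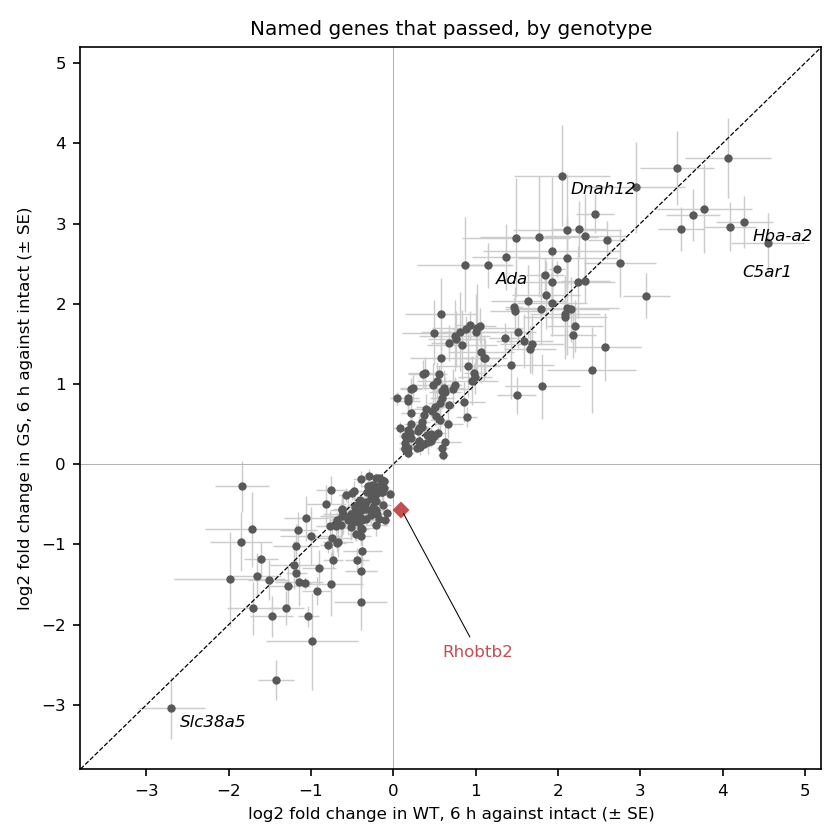
Log2 fold change at 6 h against intact striatum in WT (horizontal) and in GS (vertical), each with its standard error, for the 252 named genes that passed with both genotypes together, and the dashed line where both are equal. Rhobtb2 (red diamond, 0.10 in WT and -0.57 in GS) is the gene that passed the interaction test.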

How the data were processed

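RNA was sequenced from mouse striatum, 2 libraries for each of 2 genotypes at 4 stages. The authors deposited 1 table of read counts per gene, with no normalisation, per the file headers. The submitters' processing notes name FastQC 0.11.7 and build mm10, while no source used here gives the aligner, counter or strand. Columns headed NT were read as WT, the genotype left once GS was matched. From these counts, edgeR 4.0.16 (R 4.3.3) was run with TMM normalisation, its default filter on low counts by group, a quasi-likelihood fit with genotype and stage, and p-values adjusted by Benjamini-Hochberg across every gene tested (threshold 0.05). Standard errors were obtained as the size of the log2 fold change over the root of the F statistic. The steps were tested on simulated data. CPM were computed over all 16 libraries, and the comparison of 3 d with 6 h was fitted on all 16. DESeq2 1.42.0 and limma 3.58.1 were alternatives.

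The members and the 60 gene lists (1066 genes, of which 85 are outside the table) were chosen with earlier results of these data known. Named are the 15 genes with the largest change in each direction, at a mean of at least 1 CPM and without overlap, up to 5 members of each list described, defining markers and Lrrk2. Another 28 genes, such as P2ry13, Entpd1, Csf1r, Fos, Cldn5, Pdgfra and Dnajc3, are outside that rule and were chosen after their values were seen. Paralogs such as the globin genes and Hspa1a with Hspa1b may share reads, and with strand unknown so may overlapping and antisense genes. Replicate numbers were checked for pairing and do not pair the samples. RefSeq supplied promoters and gene positions, the latter for 19410 genes. Figures were drawn with matplotlib 3.10.9.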

Additional observations from a re-analysis of the deposited data

Results flagged for a closer look

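For 30 genes and 4 marker sums, 68 sets of 4 libraries were searched for a library far from the other 3, and 6 were found, where chance gives about 1 in 20. Among intact libraries, GS intact replicate 2 was high for the globin gene Hbb-bs, at 2.084 CPM against 1.578 to 1.656 CPM. WT intact replicate 2 was high for the cilia gene Dnah12, at 1.39 CPM against 0.2849 to 0.4613 CPM. At 6 h, GS 6 h replicate 1 was high for the complement receptor gene C3ar1, at 6.523 CPM against 3.867 to 4.315 CPM. WT 6 h replicate 2 was high for Arc, at 55.64 CPM against 43.32 to 45.07 CPM. All 4 of these genes had been picked for having no overlap between intact and injured libraries, so its absence adds no support. The summed choroid plexus genes stood at 427.0 CPM in GS intact replicate 1, against 56.25 to 113.3 CPM, and at 253.5 CPM in GS 6 h replicate 2, against 78.83 to 105.2 CPM.

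Rhobtb2 was flagged because its 6 h response differed between genotypes, by -0.6661 on the log2 scale for GS minus WT (edgeR adjusted p = 0.0298). The call was not made with the replicate block, without the filter on low counts, or in all 16 libraries. It was also lost without WT intact replicate 1, GS intact replicate 2, WT 6 h replicate 1 or either of the GS 6 h libraries.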

How the results depend on the processing

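Of 4415 genes called at 6 h, counts within 1.5 times of it were given by 19 alternatives, 6 of which leave out 1 library, among them DESeq2 (4738), limma-voom (4418) and a replicate block (4042). The count was 1482 in WT libraries only, 740 against a 1.2-fold threshold, and 2777 to 4103 with 1 library left out, lowest without GS 6 h replicate 1. It was 2089 without the choroid pair and 783 without both pairs, 2 alternatives chosen after seeing the data. These fits hold fewer samples, and no other cause was tested. The genotype difference, called for 1 gene, was called for 0 without the filter on low counts, 0 with the replicate block, 476 by DESeq2, 2 in all 16 libraries and 0 to 216 with 1 library left out, highest without GS intact replicate 1; the cause was not tested. Of 252 named genes that passed, 178 kept their call with each library left out in turn, 74 lost it at least once and 0 reversed under 25 alternatives. Same-numbered libraries did not deviate together (correlations -0.0758 to 0.0282), and the replicate block lost 3 named calls. The comparison of 3 d with 6 h gave 9176 calls and 9180 with the replicate block. At these depths low genes such as Il1rn and Hcar2 rest on few reads.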

Other observations

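The 4 genes that follow were chosen after their values were seen, and nothing is read from them about a pathway. Etv4, a transcription factor gene of the same family as Etv5, changed by -0.83 ± 0.10, edgeR adjusted p = 0.000324. The inhibitor genes Spry2 and Spry4 changed by -0.39 ± 0.067 and -0.58 ± 0.11, and Dusp6, the gene of a phosphatase that switches the kinase ERK off, by -0.65 ± 0.15. Against 6 h, in a fit that shares those libraries, the values at 3 d were 0.94 ± 0.12 for Etv4, 0.62 ± 0.066 for Spry2, 1.11 ± 0.11 for Spry4 and 1.70 ± 0.14 for Dusp6.

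Genes of cholesterol synthesis had 4 of 21 tested members higher and 0 lower, and 2 higher without the choroid pair or without both pairs. Fdft1, which makes squalene, changed by 0.44 ± 0.069, edgeR adjusted p = 0.0014 and Lss, which closes the sterol rings, by 0.29 ± 0.06, edgeR adjusted p = 0.00592. Of proteasome genes 1 of 19 was higher and 0 lower, and of glycolysis genes 0 of 20 were higher and 2 lower.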
